A study of Mus musculus with 77 samples.

Results

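The Slc25 genes encode the mitochondrial carrier family, and they were followed here through mouse RNA sequencing libraries of hormone-treated colon organoids and adenocarcinoma cells. Members were all rows whose gene symbol starts with Slc25a and a number, which gave 47 genes of the 25124 rows in the longest tables. All 47 were listed in 9 of the 10 tables. The remaining table, corticosterone in GRKO MR-580C cells, lists 404 genes and none of the family, so that treatment was not analysed here.

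Mitochondrial carriers sit in the inner mitochondrial membrane, which is otherwise closed to charged metabolites, and each exchanges a few related substrates between the cytosol and the matrix. Family members bring in ADP, phosphate, pyrimidine nucleotides, folate, NAD, iron, amino acids and acylcarnitines, and export ATP and citrate. The mineralocorticoid receptor (MR, gene Nr3c2) and the glucocorticoid receptor (GR, gene Nr3c1) are related steroid-activated transcription factors that bind the same kind of DNA element. Aldosterone is the main physiological mineralocorticoid and acts in the colon epithelium. Corticosterone is the main glucocorticoid of mice and binds both receptors.

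The labels give 18 RNA groups, all of them kept in charcoal-stripped serum for 24 h and sampled 2 h after 10 nM aldosterone, 100 nM corticosterone or vehicle. The organoids were colon intestinal epithelial cell organoids of a GRKO line (aldosterone 5 libraries, vehicle 5) and of wild type (WT, aldosterone 6, vehicle 6). Cells carrying MR were a GRKO line named MR-2B12 (corticosterone 3, aldosterone 3, vehicle 3) and a parental line named MR-1G12 (corticosterone 2, aldosterone 2, vehicle 3). Cells carrying MR-580C, a form the labels do not explain, were GRKO (aldosterone 2 after merging, vehicle 3) and parental (corticosterone 3, aldosterone 3, vehicle 3). Parental cells without MR had 3 aldosterone and 3 vehicle libraries. GR genotype and line name go together in the cells and cannot be told apart. In organoids and cells alike, GR genotype also goes together with a separate transformation of the values. Nothing in the labels ties replicates to separate cultures or animals, and every p-value below therefore rests on library-to-library spread that may be technical. The series title poses the question of how GR bears on transcription induced by aldosterone through MR, and the comparisons below take it up for the carriers.

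Libraries held 22.68 to 61.12 M reads. Nr3c1 averaged 9.12 ± 0.072 in vehicle libraries of GRKO organoids and 11.24 ± 0.10 in those of WT organoids (log2, SD, n = 5 and 6). It was not lower in the cells labelled GRKO with MR, at 12.98 to 13.02, than in parental MR cells, at 12.84 to 12.90 (3 vehicle libraries each). The MR-580C lines, at 11.84 to 11.90 in GRKO and 13.13 to 13.21 in parental cells, are on different log scales. The labels do not say how the gene was altered, so its RNA does not check that label. Nr3c2 was at 4.68 to 4.69 in the vehicle libraries of cells without MR. The organoids carried epithelial RNA, with Epcam, Cdh1, Vil1 and Cdx2 5.85 to 8.84 above the lowest value of their tables. Epcam and Cdx2 were unvarying at the lowest level or 0 in all cell lines, where Vim averaged 16.50 to 18.08. Of the 8 intestinal epithelium markers listed, 2 reached the level for testing in parental MR cells and in cells without MR. The number was 1 in GRKO MR cells and 0 in GRKO MR-580C cells, while 6 varied and were tested in parental MR-580C cells. Whether these lines match the adenocarcinoma label was not tested. All 6 known hormone targets examined (Sgk1, Tsc22d3, Per1, Fkbp5, Zbtb16, Klf9) rose with aldosterone in both organoid lines, and 0 of the 5 tested rose in cells without MR. With either hormone, 5 of 5 tested rose in parental MR cells and 5 of 6 in parental MR-580C cells. Only 3 of 5 rose in GRKO MR cells with either hormone and in GRKO MR-580C cells with aldosterone, where Fkbp5 and Klf9 were not called.

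Slc25a33, the mitochondrial pyrimidine nucleotide carrier, was the member that moved most, and its transcript (NM_027460) lies on the minus strand of chromosome 4 from 149744036 to 149774267 in mm10. Slc25a25, a calcium-regulated ATP-Mg/phosphate carrier, rose in WT organoids and was lower with corticosterone in parental MR-580C cells. Slc25a25 also had upstream windows listed at chr2:32431152-32431401 and chr2:32424067-32424316, which are not shown. The 250 bases upstream of a listed start of each gene are shown because these members changed after hormone. They are from RefSeq (GRCm38.p6, the assembly of mm10), minus strand, at chr4:149774268-149774517 and chr2:32451471-32451720, all in lower case because neither holds a match to the motifs searched.

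Slc25a33: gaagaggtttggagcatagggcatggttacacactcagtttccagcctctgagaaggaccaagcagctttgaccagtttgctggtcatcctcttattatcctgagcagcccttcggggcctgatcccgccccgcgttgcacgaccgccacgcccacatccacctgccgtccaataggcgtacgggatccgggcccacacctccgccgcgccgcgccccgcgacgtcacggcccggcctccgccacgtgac
Slc25a25: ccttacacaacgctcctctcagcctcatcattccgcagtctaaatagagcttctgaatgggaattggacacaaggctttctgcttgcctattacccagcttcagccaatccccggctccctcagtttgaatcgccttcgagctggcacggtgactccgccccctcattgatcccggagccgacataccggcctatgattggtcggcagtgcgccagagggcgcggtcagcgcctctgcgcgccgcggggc

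Upstream windows were listed for 36 of the 47 members, 46 windows in all. The palindromic receptor element, AGAACA and TGTNCT with NNN between them, searched on both strands, was in 0 of these 46 windows and in 12 of all 32851 windows (0.0365%). Its shorter part TGTTCT, which overlaps it on the reverse strand, was in 4 of 46 windows (8.7%), against 5284 of all 32851 (16.1%). Those 4 windows belong to Slc25a17, Slc25a31, Slc25a43 and Slc25a45, none of which passed the test in any comparison below. Slc25a32 and Slc25a37, which passed it in some comparisons, had no window listed and were not searched. A missing match says only that these letters are not in these windows.

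In WT organoids, 4 members rose with aldosterone and 0 fell. They were Slc25a33, Slc25a32, which carries folate and FAD, Slc25a25, and Slc25a30, an uncoupling-protein-like carrier. These 4 of 47 members compare with 4.23% of all genes raised (854 of 20196) and 2.36% lowered, at an adjusted p under 0.05 (limma with Benjamini-Hochberg adjustment over all genes of the table). The family's median difference was -0.00079, beside -0.0047 over all genes, and 11 members had an unadjusted p under 0.05. All differences are of log2 values, hormone minus vehicle, and ± after a difference is limma's SE. In bulk RNA, a change in the share of a cell type and a change in RNA per cell cannot be told apart.

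Slc25a33 ran from 9.85 to 10.17, with a median of 10.04, in the 6 aldosterone libraries of WT organoids, and from 8.07 to 8.33, with a median of 8.13, in the 6 vehicle libraries. Every aldosterone library lay above every vehicle library. The difference was 1.86 ± 0.066 (adjusted p = 9.21e-13), rank 12 of 20196 genes by p and rank 21 among the rises by size. In GRKO organoids it had 8.49, 8.51, 8.41, 8.41 and 8.56 in aldosterone libraries, against 8.39, 8.34, 8.43, 8.21 and 8.41 in vehicle libraries. These groups overlapped, with a difference of 0.12 ± 0.056 (adjusted p = 0.455). The response was larger in WT than in GRKO organoids by 1.74 ± 0.087 (WT minus GRKO, adjusted p = 1.89e-13), rank 3 of 19375 genes by p. The 2 lines were transformed separately, with lowest values of 5.929 in WT and 6.651 in GRKO. A part of this and the following differences of responses may come from scale, which was not tested. The authors' deposited log2 fold changes of Slc25a33 were 2.38 in WT and 0.23 in GRKO organoids.

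**Figure D1:**
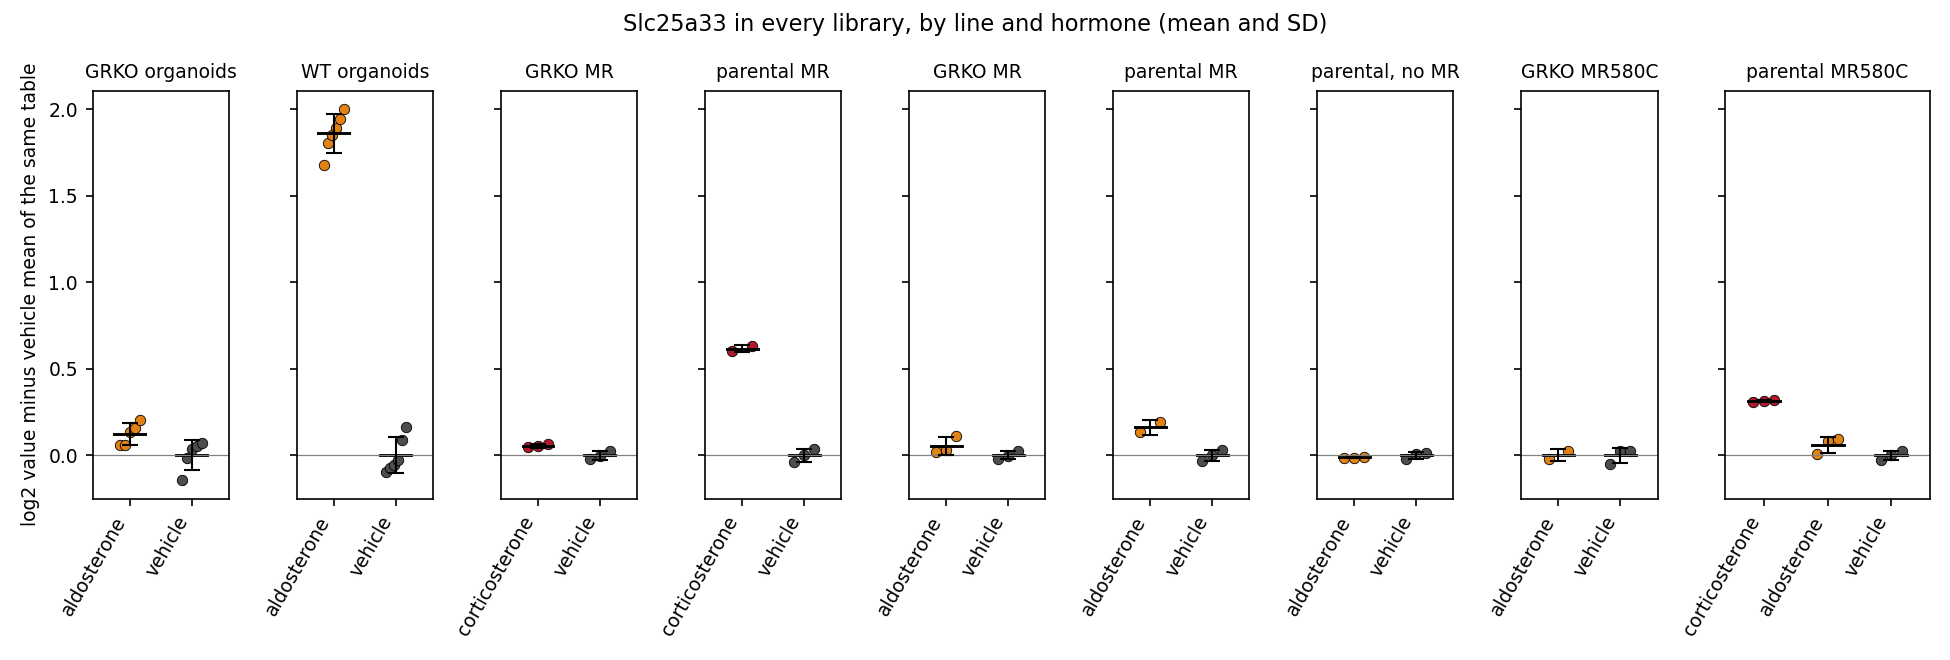
Slc25a33 in every library, as the log2 value minus the vehicle mean of the same table (vertical axis), with points for libraries, lines for means and bars for SD. Each table was transformed separately, so sizes are not on a common scale across panels. WT organoids with aldosterone average 1.86 above their vehicle, parental MR cells with corticosterone 0.62, and parental MR-580C cells with corticosterone 0.31; the cells without MR and the GRKO MR-580C cells stay near 0.

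Slc25a32 ran from 9.17 to 9.38 (median 9.20) with aldosterone in WT organoids and from 8.61 to 8.94 (median 8.80) with vehicle. The groups did not overlap, and the difference was 0.44 ± 0.063 (adjusted p = 0.000105). In GRKO organoids its aldosterone libraries had 8.89, 8.89, 9.07, 8.93 and 8.87, and its vehicle libraries 9.0, 8.89, 8.77, 8.80 and 8.73, which overlap. The WT response exceeded that of GRKO by 0.35 ± 0.087 (adjusted p = 0.0235). This difference missed the threshold without GRKO vehicle library 2 (adjusted p = 0.0537) or GRKO aldosterone library 6 (adjusted p = 0.0531).

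Slc25a25 ran from 9.96 to 10.30 (median 10.14) with aldosterone in WT organoids and from 9.60 to 9.83 (median 9.71) with vehicle, again without overlap. It rose by 0.42 ± 0.064 (adjusted p = 0.000193). The GRKO aldosterone libraries had 9.86, 9.81, 9.78, 9.87 and 9.91, within reach of 9.82, 9.88, 9.77, 9.82 and 9.79 with vehicle. The difference of responses was 0.39 ± 0.079 (WT minus GRKO, adjusted p = 0.00325). The related ATP-Mg/phosphate carriers Slc25a23 and Slc25a24 differed by 0.08 (adjusted p = 0.753) and 0.01 (adjusted p = 0.961) in WT organoids.

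Slc25a30 ran from 8.41 to 8.54 (median 8.46) with aldosterone in WT organoids and from 7.86 to 8.23 (median 8.11) with vehicle. The groups did not overlap, and it rose by 0.38 ± 0.066 (adjusted p = 0.000798). GRKO aldosterone libraries had 8.24, 8.36, 8.31, 8.54 and 8.29, against 8.30, 8.37, 8.17, 8.13 and 8.27 with vehicle, which overlap. Its responses did not pass the test of difference, at 0.28 ± 0.092 (WT minus GRKO, adjusted p = 0.129). In all, 3 of 47 members had a larger response in WT than in GRKO organoids, beside 1.87% of all genes with a larger response in WT (363 of 19375) and 0.712% with a smaller.

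**Figure D2:**
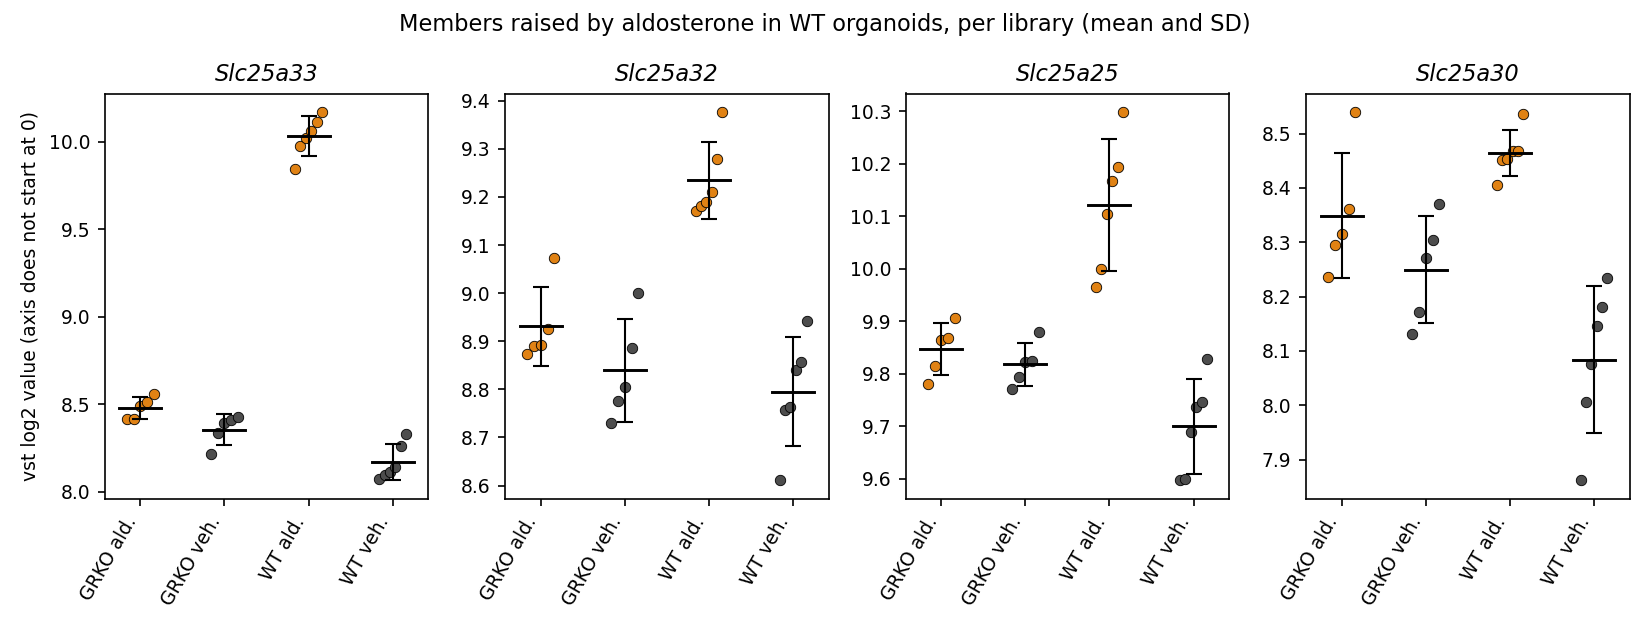
The 4 members raised by aldosterone in WT organoids, with the vst log2 value on the vertical axis and 1 point per library (line, mean; bar, SD). The WT aldosterone points lie above the WT vehicle points in all 4 panels, while the GRKO groups overlap.

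The other pyrimidine nucleotide carrier, Slc25a36, did not rise. It ran from 8.76 to 9.39 (median 9.07) with aldosterone in WT organoids and from 9.05 to 9.64 (median 9.50) with vehicle, which overlap. Its difference was -0.33 ± 0.11 (adjusted p = 0.0913), although the authors' deposited table, which calls 6.55% of all genes, gives -0.40 with an adjusted p of 0.0348. Slc25a51, the mitochondrial NAD carrier, ran from 11.34 to 11.52 (median 11.46) with aldosterone and from 11.57 to 11.65 (median 11.61) with vehicle. Those groups did not overlap, yet the difference of -0.16 ± 0.047 lay at an adjusted p of 0.0505, and the authors' deposited table calls it at 0.00434.

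By substrate, the rises in WT organoids lay in 3 of 7 classes. They were 2 of 9 carriers of cofactors and other nucleotides, 1 of 7 ADP/ATP and ATP-Mg/phosphate carriers, and 1 of 4 phosphate and uncoupling-protein-like carriers, beside 4.23% of all genes raised. With 1 or 2 calls a class, these counts show no pattern by substrate. None of the 9 amino acid carriers, 4 di- and tricarboxylate carriers or 4 iron and glutathione carriers passed the test, nor did the carnitine carrier Slc25a20 or the 9 members put in no class. The ADP/ATP carriers Slc25a4 and Slc25a5, which share much sequence, differed by -0.08 (adjusted p = 0.663) and 0.04 (adjusted p = 0.846). The aspartate/glutamate carriers Slc25a12 and Slc25a13 each differed by -0.01 (adjusted p = 0.981 and 0.941). The glutamate carriers Slc25a18 and Slc25a22 differed by 0.05 (adjusted p = 0.773) and 0.19 (adjusted p = 0.261), and the iron carriers Slc25a28 and Slc25a37 by 0.06 (adjusted p = 0.779) and -0.05 (adjusted p = 0.777). Slc25a39, which carries glutathione, and its relative Slc25a40 differed by 0.17 (adjusted p = 0.503) and -0.15 (adjusted p = 0.432).

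Other mitochondrial genes were counted in WT organoids beside the same 4.23% of all genes raised and 2.36% lowered. Of 25 other inner membrane carriers and channels, 1 rose, the serine transporter Sfxn1 (0.22, adjusted p = 0.0229). Of 33 matrix enzymes of fuel use, 5 rose, among them Pdk4, a kinase that switches off pyruvate dehydrogenase (0.65, adjusted p = 1.46e-05). None of 26 respiratory chain and ATP synthase subunits passed the test. Of 15 regulators of mitochondrial genes, 4 rose, with Ppara at 1.27 (adjusted p = 9.37e-10) and Ppargc1a at 0.86 (adjusted p = 5e-08). The medians of the 4 lists were -0.024, -0.015, -0.029 and -0.012, beside -0.0047 over all genes. In GRKO organoids, where 1.31% of all genes were called (263 of 20050), the counts were 0 of 25, 1 of 33, 0 of 26 and 2 of 15. Whether the list counts differ between the lines was not tested.

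Markers of other cells moved in a few WT libraries. Col1a1, a fibroblast collagen, was at 8.10 and 9.06 in WT aldosterone libraries 4 and 6, against 5.93 to 6.26 in the other 4 and 6.13 to 6.72 with vehicle. Summed mesenchyme markers thus ran from 8.99 to 10.37 with aldosterone and from 9.05 to 9.20 with vehicle (log2), with 0 of 5 called. Of 8 intestinal epithelium markers, Cdx2 fell (-0.37, adjusted p = 0.00263), with summed levels of 17.81 to 17.97 with aldosterone and 17.77 to 17.86 with vehicle. Of 4 colonocyte markers, Aqp8 fell (-0.44, adjusted p = 0.0393), with sums of 15.96 to 16.44 with aldosterone and 16.04 to 16.40 with vehicle. No goblet, stem or immune marker passed the test. Without libraries 4 and 6 the difference of Slc25a33 was 1.86 and 6 members were called, while the difference of responses of Slc25a32 missed the threshold (adjusted p = 0.0527). The part of the epithelial markers in the carrier results was not tested.

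In GRKO organoids 0 of 47 members passed the test with aldosterone, beside 1.31% of all genes (263 of 20050), while 8 members had an unadjusted p under 0.05. That count changed in 3 of the 10 fits that left out 1 library. Without vehicle library 1, 6 members were called, beside 970 of 19909 genes. Without aldosterone library 1 or 2, 1 member was called, beside 190 of 19964 and 226 of 19970 genes. The authors' deposited table calls 3 members, beside 1.86% of all genes. Slc25a24, an ATP-Mg/phosphate carrier, had 12.63, 12.45, 12.60, 12.59 and 12.51 with aldosterone and 12.39, 12.31, 12.31, 12.34 and 12.45 with vehicle. Its difference was 0.20 ± 0.049 (adjusted p = 0.0689), against 0.20 (adjusted p = 0.00396) in the authors' deposited table. Slc25a28, the iron carrier mitoferrin 2, had 8.92, 8.99, 8.85, 8.92 and 8.83 with aldosterone and 9.003, 9.11, 9.15, 9.12 and 9.06 with vehicle. It lay below vehicle in every library, by -0.18 ± 0.051 (adjusted p = 0.116), and the authors' deposited table gives -0.28 (adjusted p = 0.0226).

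Slc25a42, the coenzyme A carrier, had 9.33, 9.05, 9.05, 9.06 and 9.08 with aldosterone and 9.20, 9.31, 9.38, 9.45 and 9.41 with vehicle in GRKO organoids. Aldosterone library 1 stood among the vehicle libraries and the other 4 below them. The difference was -0.24 ± 0.065 (adjusted p = 0.123), and -0.33 (adjusted p = 0.0246) in the authors' deposited table. Slc26a3, a colonocyte marker, rose in these organoids (0.61 ± 0.088, adjusted p = 0.001). The summed colonocyte markers ran from 16.40 to 16.76 with aldosterone and from 16.10 to 16.55 with vehicle, and their part was not tested. Depth also differed, at 22.68 to 29.04 M reads with aldosterone and 26.64 to 37.46 M with vehicle.

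**Figure D3:**
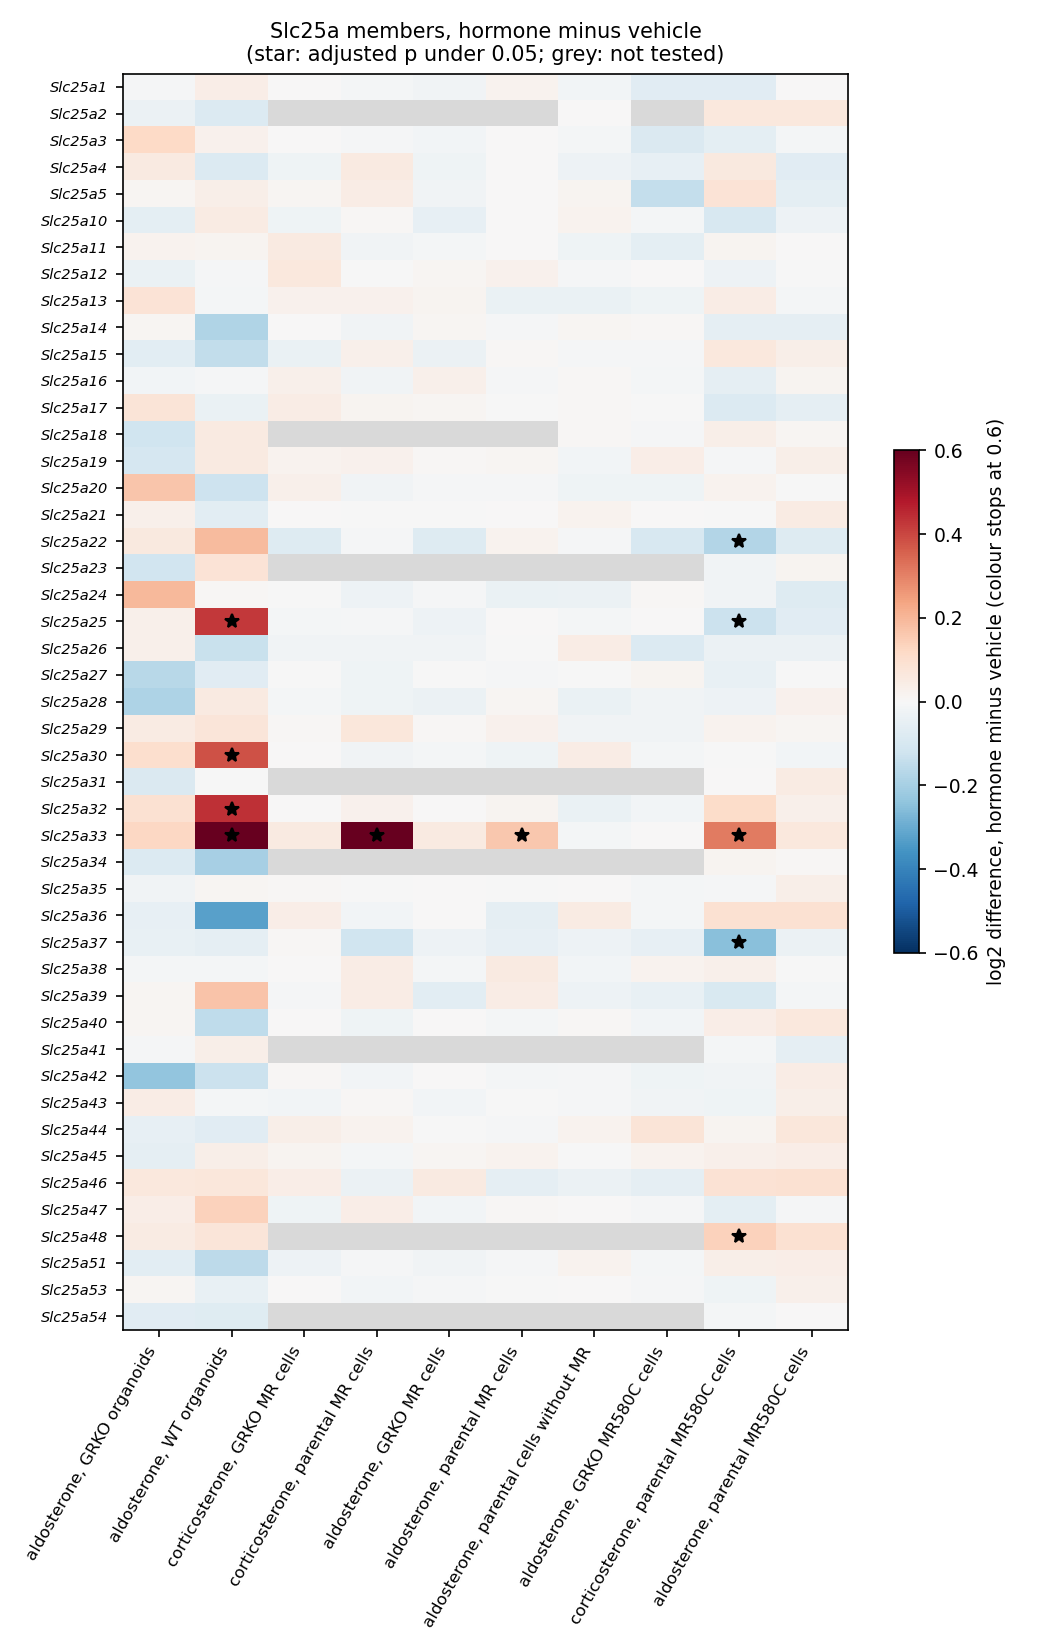
Log2 difference, hormone minus vehicle, for all 47 members (rows) in 10 comparisons (columns), in colour from -0.6 to 0.6, with larger differences drawn at the end colour. Stars mark an adjusted p under 0.05 and grey marks members not tested; Slc25a33 carries 4 of the 11 stars, all of them in WT or parental lines.

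In parental MR cells Slc25a33 was the member called with corticosterone. It had 10.29 and 10.26 in corticosterone libraries 1 and 3, against 9.69, 9.66 and 9.62 with vehicle, which do not overlap. It rose by 0.62 ± 0.034 (adjusted p = 8.77e-06), rank 30 of 12457 genes by p, and was 1 of the 39 members tested that were called, beside 2.08% of all genes raised (259) and 1.04% lowered. The authors' deposited table gives 1.25 with an adjusted p of 2.83e-36 and calls 1.86% of all genes. Slc25a37, the iron carrier mitoferrin 1, had 10.13 and 10.19 with corticosterone and 10.25, 10.23 and 10.35 with vehicle. Its groups did not overlap, but the difference was not called (-0.12 ± 0.043, adjusted p = 0.304).

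In GRKO MR cells 0 of 39 members passed the test with corticosterone, beside 0.248% of all genes (31 of 12517), with 4 members at an unadjusted p under 0.05. The authors' deposited table calls 0, beside 0.313% of all genes. Slc25a33 had 9.44, 9.42 and 9.42 with corticosterone and 9.35, 9.37 and 9.40 with vehicle. The libraries did not overlap, with a difference of 0.06 ± 0.019 (adjusted p = 0.428). The response of Slc25a33 was larger in parental than in GRKO MR cells by 0.56 ± 0.034 (parental minus GRKO, adjusted p = 2.97e-07). It was 1 of 39 members with such a call, beside 1.97% of all genes raised and 0.838% lowered (252 and 107 of 12769).

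With aldosterone the same carrier moved less in parental MR cells. Slc25a33 had 9.74 and 9.68 in aldosterone libraries 1 and 3, against 9.58, 9.55 and 9.52 with vehicle, without overlap. It rose by 0.16 ± 0.028 (adjusted p = 0.047), 1 of 39 members called beside 0.625% of all genes raised (78 of 12479) and 0.0721% lowered. That call was lost without aldosterone library 1 (adjusted p = 0.484), aldosterone library 3 (0.0788), vehicle library 1 (0.136) or vehicle library 2 (0.166). The authors' deposited table gives 0.45 with an adjusted p of 0.00219 and calls 0.509% of all genes. The aldosterone and corticosterone comparisons of each line share their vehicle samples.

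In GRKO MR cells 0 of 39 members passed the test with aldosterone, beside 0.993% of all genes (124 of 12486), with 5 members at an unadjusted p under 0.05. The authors' deposited table calls 0, beside 0.569% of all genes. Slc25a33 had 9.33, 9.33 and 9.42 with aldosterone and 9.28, 9.30 and 9.33 with vehicle, which overlap. Its difference was 0.05 ± 0.022 (adjusted p = 0.35). The member with the smallest p was Slc25a22, a mitochondrial glutamate carrier. It had 9.96, 10.02 and 10.04 with aldosterone and 10.10, 10.06 and 10.10 with vehicle, a difference of -0.08 ± 0.021 (adjusted p = 0.129). The aldosterone responses of parental and GRKO MR cells differed for 0 of 39 members, beside 0.259% of all genes (33 of 12753), with 4 members at an unadjusted p under 0.05. For Slc25a33 that difference was 0.11 ± 0.039 (parental minus GRKO, adjusted p = 0.496).

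In parental cells without MR 0 of 41 members passed the test with aldosterone, beside 0.00767% of all genes (1 of 13038), with 2 members at an unadjusted p under 0.05. The authors' deposited table calls 0, beside 0.0716% of all genes. Slc25a33 had 8.57, 8.56 and 8.57 with aldosterone and 8.60, 8.59 and 8.56 with vehicle. These values overlap. The smallest p belonged to Slc25a36, which had 9.86, 9.85 and 9.86 with aldosterone and 9.83, 9.78 and 9.83 with vehicle (0.05 ± 0.020, adjusted p = 0.898). The response of Slc25a33 in parental MR cells exceeded that in cells without MR by 0.17 ± 0.032 (parental MR minus no MR, adjusted p = 0.0327), 1 of 41 members beside 0.448% of all genes raised (59 of 13162) and 0.0836% lowered. Leaving out any 1 of 8 of the 11 libraries took that adjusted p above 0.05, up to 0.225 without parental MR aldosterone library 1.

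In parental MR-580C cells carriers were called against vehicle with corticosterone only. There 2 members rose and 3 fell of 47, beside 3.45% of all genes raised and 3.47% lowered (649 and 651 of 18787), and 11 had an unadjusted p under 0.05. Slc25a33 had 10.54, 10.54 and 10.53 with corticosterone, 10.31, 10.32 and 10.23 with aldosterone, and 10.20, 10.25 and 10.22 with vehicle. The corticosterone libraries stood above all others, by 0.31 ± 0.034 over vehicle (adjusted p = 1.16e-06) and by 0.25 ± 0.034 over aldosterone (adjusted p = 3.98e-05).

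Slc25a37 had 11.76, 11.74 and 11.69 with corticosterone, 11.90, 11.97 and 11.95 with aldosterone, and 12.01, 11.99 and 11.94 with vehicle. All 3 corticosterone libraries were below the others. It fell with corticosterone against vehicle (-0.25 ± 0.033, adjusted p = 2.11e-05) and was lower with corticosterone than with aldosterone (-0.21 ± 0.033, adjusted p = 0.000273). Its relative Slc25a28 differed by -0.03 from vehicle (adjusted p = 0.737). Slc25a33 and Slc25a37 were thus the 1 raised and 1 lowered member between the hormones, given at different doses, beside 1.98% and 1.37% of all genes.

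**Figure D4:**
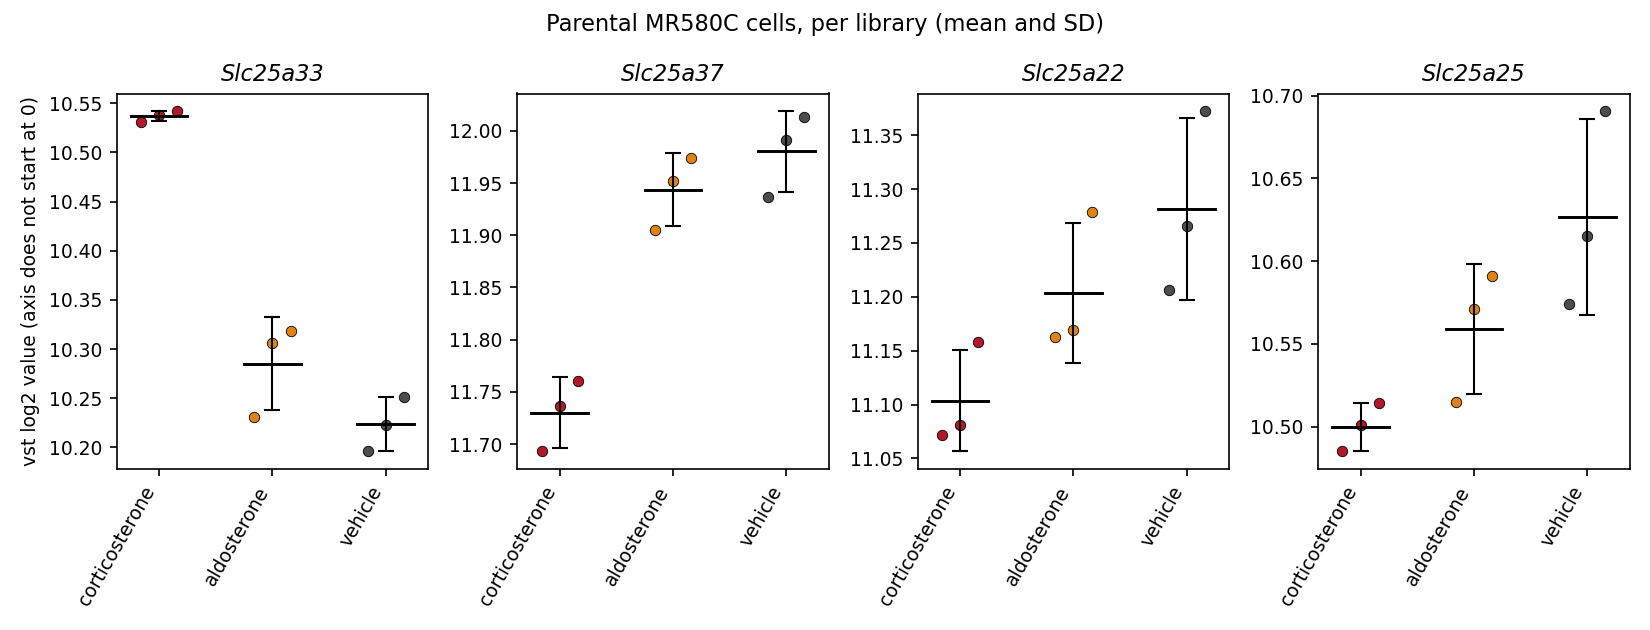
Vst log2 values (vertical axis) of 4 members in the 9 libraries of parental MR-580C cells, with points for libraries, lines for means and bars for SD. Corticosterone libraries of Slc25a33 lie at 10.53 to 10.54, above all others, and those of Slc25a37 at 11.69 to 11.76, below all others.

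The remaining 3 calls in parental MR-580C cells were smaller and depended on single libraries. Slc25a22 had 11.16, 11.08 and 11.07 with corticosterone and 11.27, 11.21 and 11.37 with vehicle, a difference of -0.18 ± 0.042 (adjusted p = 0.0107) that was not called without vehicle library 3 (0.121), corticosterone library 2 (0.101) or corticosterone library 3 (0.0806). Slc25a25 had 10.48, 10.50 and 10.51 with corticosterone and 10.69, 10.57 and 10.62 with vehicle (-0.13 ± 0.036, adjusted p = 0.0349). It was lost in 5 of 9 fits that left out a library, those without vehicle library 1 (0.212), vehicle library 3 (0.0956) or corticosterone library 1 (0.116), 2 (0.129) or 3 (0.0867). For both genes every corticosterone library lay below every vehicle library.

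Slc25a48, a mitochondrial choline carrier, had 9.40, 9.42 and 9.32 with corticosterone and 9.16, 9.27 and 9.30 with vehicle. These lie close to the lowest value of the table, 9.157, which marks genes with hardly any reads. The difference of 0.14 ± 0.039 (adjusted p = 0.0341) was lost without vehicle library 1 (0.231), vehicle library 3 (0.0511), corticosterone library 1 (0.133) or corticosterone library 2 (0.225), and its adjusted p is 1 in the authors' deposited table. The authors' deposited table, with 6.41% of all genes called, calls the other 4, with 0.79 for Slc25a33, -0.34 for Slc25a37, -0.30 for Slc25a22 and -0.28 for Slc25a25. Among 33 matrix enzymes, Pdk4 rose with corticosterone in these cells (0.47, adjusted p = 1.86e-08) and 1 fell, and 2 of the 14 regulators tested fell, with Ppargc1a at -0.24 (adjusted p = 0.00011).

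With aldosterone 0 of 47 members passed the test in parental MR-580C cells, beside 1.15% of all genes (216 of 18787), with 4 members at an unadjusted p under 0.05. The authors' deposited table calls 0, beside 0.884% of all genes. Slc25a46, an outer membrane protein of mitochondrial fission and fusion, had the smallest p. It had 11.67, 11.71 and 11.67 with aldosterone and 11.54, 11.64 and 11.60 with vehicle, a difference of 0.09 ± 0.033 (adjusted p = 0.289).

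In MR-580C cells labelled GRKO, 0 of 40 members passed the test with aldosterone, beside 0.298% of all genes (37 of 12418), with 5 at an unadjusted p under 0.05. Slc25a33 had 7.62 and 7.66 with aldosterone and 7.66, 7.66 and 7.59 with vehicle, which overlap. Slc25a5, an ADP/ATP carrier, had 12.78 and 12.63 with aldosterone and 12.87, 12.85 and 12.82 with vehicle, below vehicle in both. The difference was -0.14 ± 0.045 (adjusted p = 0.178), against -0.25 (adjusted p = 0.0112) in the authors' deposited table, where 2.2% of all genes are called. Without aldosterone library 1, 7 members were called and Slc25a5 reached -0.22 (adjusted p = 0.000186), the aldosterone group then being the 1 merged library. Slc25a26, the S-adenosylmethionine carrier, had the smallest p, at 6.99 and 6.92 with aldosterone and 7.04, 7.04 and 7.03 with vehicle (-0.08 ± 0.025, adjusted p = 0.161).

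Vehicle levels were compared between members per length, as the log2 value minus log2 of the transcript's length in kilobases. Slc25a5 and Slc25a3, the phosphate carrier, held ranks 1 and 2 in all 7 lines, with Slc25a3 ahead in GRKO MR cells. In WT organoids they stood at 13.91 ± 0.10 and 13.21 ± 0.063 (SD, n = 6), a gap larger than their spread. In GRKO MR-580C cells both stood at 12.48, within their spread of 0.025 and 0.024. Reads of Slc25a5 and Slc25a4 may be split with near-identical copies, as the sources do not state how such reads were handled.

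The rank-3 member differed between organoids and cells. Slc25a20, which carries acylcarnitines for fatty acid oxidation, held rank 3 in organoids, at 11.42 ± 0.093 in GRKO and 11.51 ± 0.16 in WT (SD, n = 5 and 6), and ranks 16 to 24 in the cell lines. Slc25a4, the ADP/ATP carrier of muscle and heart, held rank 3 in all 5 cell lines, at 11.86 to 13.85, and ranks 9 and 7 in GRKO and WT organoids. Slc25a48 held rank 18 in both organoid lines and ranks 37 to 46 in the cells. Slc25a33 was no abundant member, at rank 31 in both organoid lines and 16 to 25 in the cells. These ranks describe the lines and were not tested, because the tables are on different scales. Among members near the lowest value of a vst table, the order largely reflects transcript length.

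**Figure D5:**
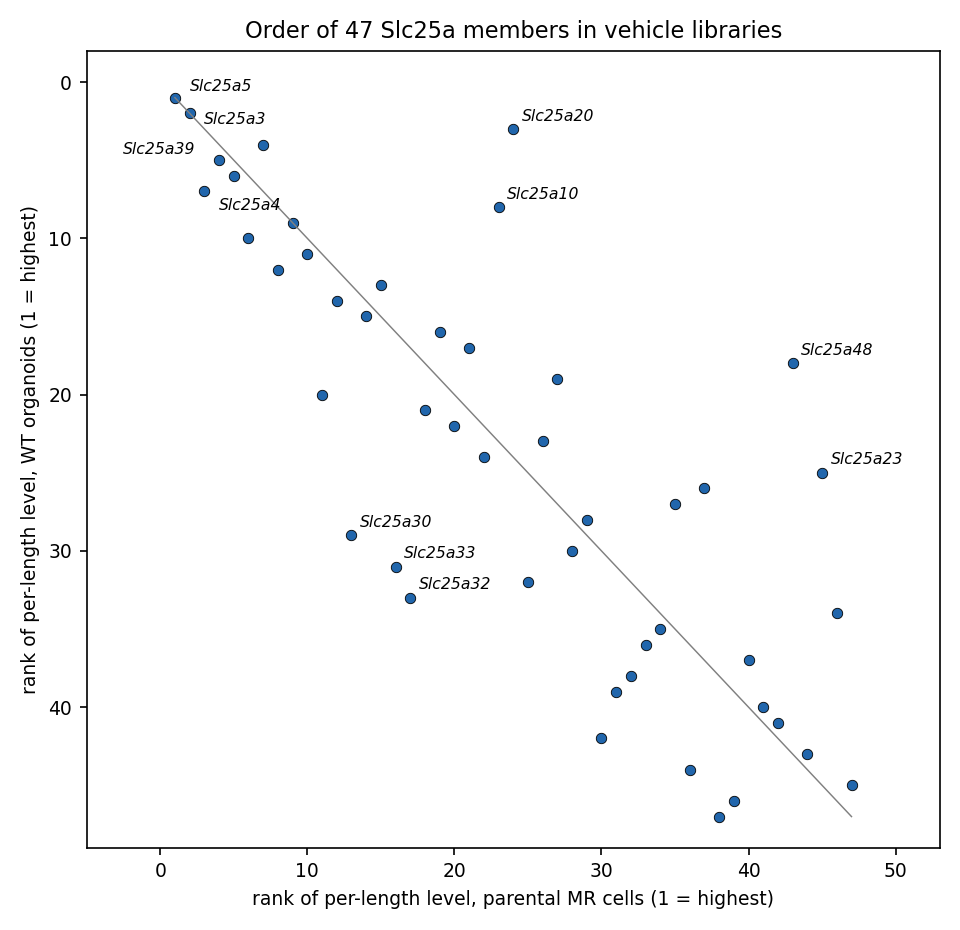
Rank of each of the 47 members by per-length vehicle level (1 is highest) in parental MR cells (horizontal axis) and WT organoids (vertical axis, rank 1 at the top), with 1 point per gene and the line of equal rank. Slc25a5 and Slc25a3 lead in both; Slc25a20, Slc25a10, Slc25a48 and Slc25a23 rank higher in organoids, and Slc25a30, Slc25a33 and Slc25a32 higher in the cells.

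At the other end, low members limit what could be seen. The tables of MR cells left 39 members to test, GRKO MR-580C cells 40 and cells without MR 41, since the others did not vary or stayed under a linear value of 10. In the vst tables all 47 were tested, but 10 in WT organoids, 11 in GRKO organoids and 21 in parental MR-580C cells lay within 1 of the table's lowest value. Slc25a31, a germ-cell ADP/ATP carrier, was among the last 4 in every line but parental MR-580C, and Slc25a23 among the last 3 in all 5 cell lines. In parental MR-580C cells Slc25a31 held rank 43 although its vehicle libraries sat on the lowest value, 9.157. For a gene at that lowest value, the rank follows from transcript length alone.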

How the data were processed

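Members, gene lists and tests were chosen with earlier results of these data known. Total RNA (PureLink kit) was made into TruSeq stranded libraries, per the labels' protocols. Per the submitters' processing notes, STAR 2.7.0f, Bowtie2 2.3.4.1, HOMER 4.10.4, cutadapt 1.18, bcl2fastq 2.20, Trimmomatic and deepTools were used with mm10, with no role given for each. Per the file headers, the authors counted exon reads with HOMER and deposited log2 values, made with a variance-stabilizing transformation (vst) in the tables of both organoid lines and of parental MR-580C cells. The other tables were taken from their values to hold regularized logs. Both transformations pull low genes together, so differences of low genes are understated, and depth per gene is unknown. Differences of higher genes can also be smaller than the deposited fold changes. For Slc25a33 in parental MR cells with corticosterone these were 0.62 and 1.25. The authors' deposited log2 fold changes, p-values and adjusted p-values come from HOMER's comparison script, per the file headers.

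Each table was fitted alone with limma 3.58.1 (R 4.3.3; lmFit, eBayes with trend, 2-sided, Benjamini-Hochberg over all genes tested) on the values as deposited, since count models do not suit logs. Genes had to vary and reach a linear value of 10 (log2 3.32) in as many libraries as the smaller group. In the vst tables the lowest values, 5.929, 6.651 and 9.157, lie above this level, so only unvarying genes were dropped there. Responses of 2 lines were compared by an interaction with an intercept per table. Each table was transformed separately, so such a difference can hold a difference in scale, which was not tested. Fits were tested on simulated data. Named members were those past an adjusted p of 0.05 in limma or in the authors' deposited tables, the member of smallest p where limma called none, the 3 highest per length, and close relatives. Slc25a33 was also described in every line as the member called in most comparisons, a choice made after its values were seen.

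Of 63 RNA samples 62 had a column, and parental MR corticosterone replicate 2 was not analysed here. The aldosterone libraries 2 and 3 of GRKO MR-580C cells agreed within 1e-06 for every gene and were counted as 1. Columns of the GRKO organoids say GRKD. The 14 chromatin samples were not used here. In tables with 3 or more pairs, replicate numbers did not pair libraries, as the lowest correlation of same-numbered libraries was under 0.1 in each. In parental MR cells the 2 same-numbered pairs correlated at 0.70 and 0.75 with aldosterone and at 0.67 and 0.72 with corticosterone. With 2 libraries per hormone, centred on their mean, both correlations rest on the same difference between those libraries. They are therefore not separate evidence of pairing. The main fits of that line do not use this possible pairing. A block on replicate called 365 genes with aldosterone, against 87 without it, and 1257 with corticosterone, against 388.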

Additional observations from a re-analysis of the deposited data

Results flagged for a closer look

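Among 56 groups of 4 to 10 libraries, over 14 named members, 4 held a library apart from the rest by Dixon's criterion, which chance meets in about 1 in 20 groups. Only organoid groups had enough libraries to be examined, so no cell line was checked. All 4 were GRKO organoid libraries. Slc25a22, the glutamate carrier, was at 9.3699 in vehicle library 1, against 9.7955 to 9.8541 in the other 4. Slc25a32, the folate carrier, was at 9.0726 in aldosterone library 3, against 8.8731 to 8.9253. Slc25a42, the coenzyme A carrier, was at 9.3339 in aldosterone library 1, against 9.0483 to 9.0802. Slc25a46 was at 10.452 in aldosterone library 3, against 10.362 to 10.377.

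Some responses differed between lines by the test of the difference itself (limma). Between organoid lines these were Slc25a33 (1.739, WT minus GRKO), Slc25a25 (0.3935) and Slc25a32 (0.3475), on the log2 scale. Between parental and GRKO MR cells it was the corticosterone response of Slc25a33 (0.5612, parental minus GRKO). Between parental MR cells and those without MR it was its aldosterone response (0.1747).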

How the results depend on the processing

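Another filter, no variance trend, shifting libraries to 1 median, the authors' deposited test, a replicate block and leaving out each library were tried. In the vst tables every value lies above the filters, so changing the filter could not alter those results. Recomputed were 29 pairs of member and comparison, those called by limma or the authors or, where neither called any, of smallest p. No difference among them changed sign, and the other values given were not recomputed. Shifting to 1 median gave 1 member called in GRKO organoids and 0 in parental MR cells with aldosterone. Without the trend, 0 were called in parental MR cells with aldosterone and 0 in their difference from cells without MR. With no filter, 2 were called in parental MR cells with corticosterone and 2 in their difference from GRKO. The authors' deposited test called 3 in GRKO organoids and 1 in GRKO MR-580C cells. The cause was not tested.

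With the replicate block, 3 members were called in parental MR cells with corticosterone, 1 in GRKO MR cells with aldosterone, 1 in the difference of aldosterone responses between these lines and 0 in that between parental MR cells and cells without MR. It also called Slc25a51 and Slc25a36 in WT organoids (adjusted p = 0.0264 and 0.00618) and lost the Slc25a32 difference between organoid lines (0.0833). Only parental MR cells had 2 pairs, with correlations of 0.67 to 0.75. No paired analysis was possible because of the merged libraries in GRKO MR-580C cells.

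Leaving out 1 library gave 4 to 8 calls in WT organoids (8 without aldosterone 4), 0 to 6 in GRKO organoids (6 without vehicle 1, 1 without aldosterone 1 or 2), and 2 to 3 in their difference. In parental MR cells it gave 0 to 1 with aldosterone (1 only without vehicle 3) and 1 with corticosterone in all 5. It gave 0 to 1 in GRKO MR cells with aldosterone (1 without vehicle 2) and with corticosterone (1 without corticosterone 1). The corticosterone difference of these lines gave 1 to 2 (2 without parental corticosterone 1 or GRKO vehicle 3), and the difference from cells without MR 0 to 1. Parental MR-580C cells with corticosterone gave 2 to 9 calls (9 without vehicle 2, 3 without vehicle 1, corticosterone 1 or 3, 2 without vehicle 3 or corticosterone 2), and 2 to 4 between hormones (4 without aldosterone 1). GRKO MR-580C cells gave 0 to 7 (7 without aldosterone 1). Slc25a33 kept its calls in WT organoids (1.84 to 1.90), in parental MR cells with corticosterone (0.60 to 0.63) and in parental MR-580C cells with corticosterone (0.30 to 0.33) each time. Where a group fell to 1 library, that library was assumed to vary like the other group. Leaving out WT aldosterone libraries 4 and 6 was chosen after seeing the data.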
